A study of Mus musculus with 4 samples.

Results

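Calcium-binding proteins of MGE-derived interneurons were followed through 7 genes: Pvalb, Calb1, Calb2, Necab1, Necab2, S100a10 and Anxa2. They were taken by symbol from the 43348 genes of the single-cell count tables, and each symbol matched a single gene. The cells were TdTomato-positive cells sorted from frontal cortex and hippocampus of male and female mice at postnatal day 18 to 20. All animals carried Nkx2-1-Cre and the Ai14 TdTomato reporter. WT animals (genotype label GRIN1-WT) were Grin1 wt/wt, and null animals (genotype label GRIN1-KO) were their Grin1 fl/fl littermates. Each region gave 3 WT and 2 null libraries, each pooled from several animals, so the library is the replicate and differences between single animals are not resolved. Nkx2-1-Cre acts in the whole Nkx2-1 lineage, which includes oligodendrocytes and their precursors beside interneurons. Replicate 1 was made with the 10x v2 chemistry and replicates 2 and 3 with v3, and there was no null replicate 3.

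Calcium enters an interneuron through voltage-gated channels and receptors during firing, and cytosolic proteins bind it and shape the size and duration of the signal. Parvalbumin (Pvalb), calbindin (Calb1) and calretinin (Calb2) are soluble buffers built from EF-hand motifs, the helix-loop-helix folds that hold a calcium ion, and they have long served as histological markers of interneuron types. Necab1 and Necab2 encode neuronal EF-hand proteins with an added antibiotic biosynthesis monooxygenase domain. S100a10 (p11) is an S100 protein that has lost calcium binding and forms a complex with annexin A2, a protein that binds membrane lipids in the presence of calcium and is encoded by Anxa2.

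In GRCm38 with GENCODE M21 annotation, Pvalb lies at chr15:78191114-78206400 on the minus strand and Calb2 at chr8:110137502-110168210, also minus. Calb1 (chr4:15881264-15908064, plus strand) and Necab1 (chr4:14952245-15149794, minus strand) are on the same chromosome. Necab2 is at chr8:119446719-119472640, S100a10 at chr3:93555080-93564643 and Anxa2 at chr9:69453620-69491795, all on the plus strand. All 7 are protein-coding. The libraries count 3′ ends, and the count tables hold no read positions. The nearest gene downstream on the same strand was at least 17007 bp away for each member. Necab1 overlaps Gm11837 and Gm11844 on the opposite strand, and Anxa2 overlaps Mir3109 on its own strand and Gm16144 on the other.

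The tables held 26987 cell barcodes, of which 26201 were kept and grouped into 35 clusters. A library held between 1488601 UMIs (null cortex replicate 1) and 47338167 UMIs (null hippocampus replicate 2). Clusters were named from marker genes that did not include the 7 members, and the members were also left out of the genes used for clustering. Names such as SST, PVALB, NGFC (neurogliaform) and TH below therefore mean SST-like, PVALB-like, NGFC-like and TH-like. The WT libraries held 4468 SST, 470 TH, 1597 PVALB and 1329 NGFC cells. WT hippocampus replicate 2 stood apart, with a median of 1479 UMIs per cell against up to 9763 in the deepest library and 72.2% of its SST and TH cells in the shallow cluster led by Gm27675. The SST clusters led by Gm27675, Crh, Myh13 and Myh8 have no SST marker among their top 10 genes, although each expressed at least 5 SST markers. The Crh cluster has 1 marker of another list there, Crh of the TH list, and SST and TH cells were tested together. At other clustering resolutions clusters that share the leading genes of the Gm27675 cluster were named PVALB (resolution 1.4) or left unnamed (0.6). Null cortex replicate 1 held only 177 kept cells, 4 of them NGFC, so NGFC values for null cortex rest on replicate 2. Grin1, the targeted gene, was measured at 121 to 254 CPM (UMIs of a gene per 1000000 UMIs of the same cells) in the SST class of the 6 WT libraries and at 22 to 36.7 CPM in the 4 null libraries. The ranges were 102 to 213 and 16.6 to 42.5 CPM in the PVALB class, and 111 to 182 and 15.6 to 36.3 CPM in NGFC. The genotypes did not overlap in any class, in the direction of the labels, although where the 3′ reads lie relative to the deleted part of Grin1 is not given in the sources used here.

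Among the interneuron classes, the mean level was highest in PVALB cells for Pvalb, in SST cells for Calb1 and in NGFC for Necab2. The library ranges of Pvalb and Calb1 overlapped those of another interneuron class. The values are CPM of the UMIs summed over the cells of a class in a library, and they are a description, since the classes come from clustering the same cells. Because 3′ UMIs are not a measure per length, levels were compared between classes for a gene and not between genes.

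Pvalb, the buffer that marks fast-spiking basket cells, reached 1336 ± 687 CPM (SD, n = 6 WT libraries) in the PVALB class, with a lowest value of 333, a median of 1580 and a highest of 2027 CPM. Among interneurons the TH class followed at 468 ± 399 CPM (SD, n = 5) and the SST class at 68.9 ± 43.3 CPM (SD, n = 6), and each of these neighbouring ranges overlapped. Pvalb UMIs were found in 72.1% of WT PVALB cells (52.5% when each cell was thinned to 1000 UMIs). In oligodendrocytes, which served as the background cell type, the share was 0.848% (0.305% thinned), at a median of 3487 UMIs per cell against 6817 in PVALB cells. Within the PVALB class of WT cortex, the cluster led by Cartpt was at 1834 to 2292 CPM over the libraries, above that led by Kcng4 (264 to 829 CPM) and that led by Crabp1 (282 to 853 CPM). In WT hippocampus the Cartpt (238, 1485 and 659 CPM) and Kcng4 clusters (509, 1452 and 697 CPM) overlapped. The clusters are named here by their leading gene. Oligodendrocyte precursors held 37.6 ± 14.7 CPM (SD, n = 6) of Pvalb, above the 3.28 ± 2.73 CPM (SD, n = 6) of oligodendrocytes. Their range overlapped that of NGFC, at 25.5 ± 12.7 CPM (SD, n = 6).

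Calb1, the buffer of many SST cells, was at 494 ± 141 CPM (SD, n = 6) in the SST class (lowest 320, median 495, highest 714 CPM). Glutamatergic cells held 357 ± 364 CPM (SD, n = 5) and PVALB cells 259 ± 211 CPM (SD, n = 6), so the order of these 3 classes was within the spread between libraries. TH cells, which are grouped with SST cells in the tests below, held 57.4 ± 42.2 CPM (SD, n = 5) of Calb1. Among SST clusters of WT cortex the Cbln4 cluster was at 750 to 1424 CPM over the libraries, the Myh13 cluster at 607 to 966 CPM and the Crh cluster at 471 to 515 CPM. In WT hippocampus the Myh13 cluster (573 and 595 CPM) was above the Cbln4 cluster (254 to 460 CPM). The cluster led by Chodl, a known marker of long-range projecting SST cells, was at 2.83 to 17.2 CPM in the WT libraries, but at 226 CPM in the 20 cells of null hippocampus replicate 2. The PVALB class was divided as well. Its Cartpt cluster was at 130 to 302 CPM in WT cortex and 212 to 974 CPM in WT hippocampus, the Kcng4 cluster at 0 to 12 and 0 to 125 CPM, and the Crabp1 cluster at 0 to 15.7 CPM in WT cortex. The Crabp1 values are 1, 0 and 0 UMIs in 10, 10 and 18 cells, where 3 UMIs would be 47.0, 62.4 and 15.5 CPM. Calb1 was found in 59.7% of WT SST cells (33.7% thinned) at a median of 6178.5 UMIs, against 0.746% of oligodendrocytes (0.191% thinned).

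Calb2 was highest in SST cells among the named interneuron classes, at 175 ± 129 CPM (SD, n = 6) against 11.4 CPM in NGFC, 5.87 CPM in PVALB and 1.91 CPM in TH cells. The highest mean of any group of cells was in the unnamed cluster led by Igfbpl1, at 864 ± 464 CPM (SD, n = 4). Its lowest library held only 2 UMIs in 12 cells, and its range overlapped that of SST cells. The lowest SST library, at 70.1 CPM, was still above the highest PVALB library (19.1 CPM) and the highest NGFC library (36.1 CPM). Within the SST class of WT cortex the Cbln4 cluster was at 577 to 1181 CPM, the Chodl cluster at 146 to 316 CPM, the Crh cluster at 62.9 to 85.6 CPM and the Myh8 cluster at 0 to 46.8 CPM. The Gm27675 cluster (48.4 to 437 CPM) and the Myh13 cluster (417 CPM in the 16 cells of replicate 1, 59.1 CPM in replicate 2) reached above the Chodl range. Calb2 was found in 18.8% of WT SST cells (10.4% thinned) and in 0.305% of oligodendrocytes (0.0191% thinned).

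Necab1 differed least between interneuron classes, with 55.1 ± 43.5 CPM (SD, n = 6) in SST, 46.6 ± 28.1 CPM (SD, n = 6) in PVALB, 38.8 ± 20.1 CPM (SD, n = 5) in TH and 38.6 ± 20.0 CPM (SD, n = 6) in NGFC. Glutamatergic cells were at 63.4 ± 40.2 CPM (SD, n = 5), whereas oligodendrocyte precursors held 0.982 CPM, oligodendrocytes 0.367 CPM and astrocytes 0. The even class means covered a wide range of clusters. The small Crabp1 cluster of PVALB cells was at 278 to 392 CPM in the WT cortical libraries, and the Cbln4 cluster of SST cells was at 45.8 to 160 CPM over the WT libraries. Over all WT and null libraries the Crabp1 cluster held 116 cells, 38 from WT cortex and 64 from null cortex. A Necab1 UMI was found in 88.8% of the 116 cells, without thinning. The Kcng4 cluster held 0 to 26.5 CPM and the Chodl cluster 0 to 10.7 CPM.

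Necab2 marked NGFC, at 295 ± 108 CPM (SD, n = 6; lowest 173, median 280, highest 479 CPM). It was the only member whose top class did not overlap the next group of cells, which was the unnamed cluster led by Oxt, with a highest library of 82.6 CPM and a mean 4.86-fold lower. TH, SST and PVALB cells held 28.8, 25.4 and 19.8 CPM. A Necab2 UMI was found in 54.7% of WT NGFC cells (23.7% thinned) at a median of 3463 UMIs, against 0.661% of oligodendrocytes (0.152% thinned) at 3487 UMIs. Both NGFC clusters carried it, that led by Lamp5 at 229 to 477 CPM over the WT libraries and that led by Pde11a at 159 and 171 CPM. The Crabp1 cluster of PVALB cells carried it as well, at 146 to 345 CPM, whereas the Cartpt cluster of the same class was at 3.14 to 33 CPM, so Necab1 and Necab2 were both high in that small cluster.

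S100a10 was at 79.4 ± 57.1 CPM (SD, n = 6) in the SST class and at 8.66, 4.13 and 2.38 CPM in TH, PVALB and NGFC. The Oxt cluster (217 ± 149 CPM, SD, n = 5), the Igfbpl1 cluster (191 CPM), choroid plexus cells (132 CPM), glutamatergic cells (125 CPM) and astrocytes (110 CPM) had higher means than SST cells, with ranges that overlapped from each to the next. Within the SST class S100a10 was highest in the Chodl cluster, at 805 CPM over all WT and null libraries, with a UMI in 94.6% of the 422 cells (72.9% when thinned to 2000 UMIs). In the WT libraries with at least 10 cells of a cluster, the Chodl cluster was at 524 to 945 CPM, the Crh cluster at 43.2 to 63.1 CPM and the Myh13 cluster at 3.97 to 90 CPM. The Myh13 cluster was higher in the null libraries, at 123, 203 and 211 CPM.

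Anxa2, the partner of S100a10, was close to background in the mean levels of the interneuron classes. It reached 3.96 ± 3.35 CPM (SD, n = 6) in SST and 2.22 CPM in PVALB cells against 2.54 CPM in oligodendrocytes. A UMI was found in 2.66% of SST cells and 1.07% of oligodendrocytes, and in 0.265% and 0.152% after thinning. Its highest levels were in endothelial cells (265 CPM, a single WT library) and choroid plexus cells (178 CPM). In the Chodl cluster, where S100a10 was highest, no Anxa2 UMI was counted among 422 cells. In WT cortex the Cbln4 (22, 10.7 and 9.68 CPM) and Crh clusters (3.81, 12.5 and 15.7 CPM) overlapped. All of these values but the 3.81 CPM were above the highest oligodendrocyte library (4.88 CPM).

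**Figure D1:**
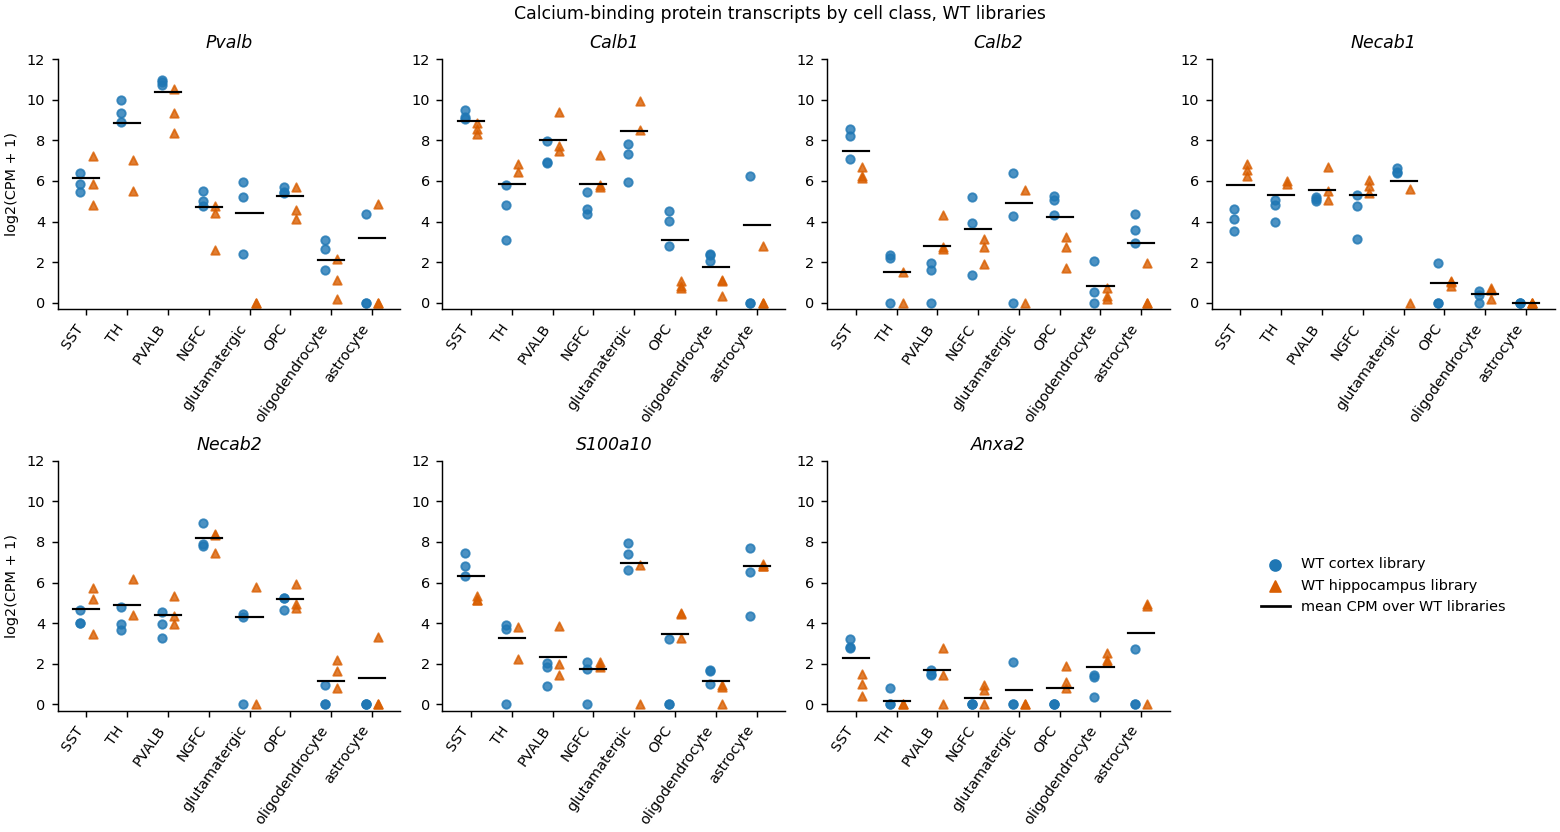
CPM of each member on a log2(CPM + 1) axis in 8 cell classes, with a point for each WT library (circles for cortex, triangles for hippocampus) and a bar at the mean CPM. Necab2 in NGFC (173 to 479 CPM) lies above every library of the other classes drawn, whereas Necab1 overlaps across the interneuron classes.

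**Figure D2:**
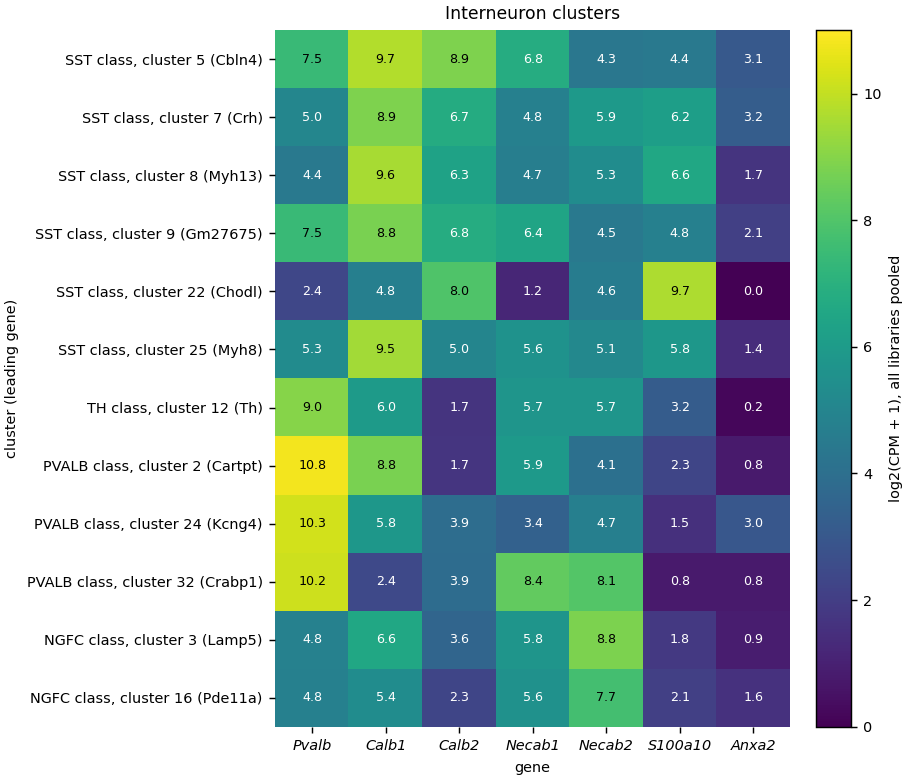
Level of the 7 members in 12 interneuron clusters, pooled over all WT and null libraries, as a heat map of log2(CPM + 1), each cluster named by its number and leading gene. S100a10 is highest in the Chodl cluster (805 CPM), and the Crabp1 cluster carries Necab1 (329 CPM) and Necab2 (265 CPM) with little Calb1 (4.31 CPM).

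Hippocampal and cortical cells of a class were then compared in the 6 WT libraries. A class sum cannot tell fewer positive cells from less RNA per cell. In the SST class (TH cells included), Necab1 was measured at 11.3, 24.6 and 17.4 CPM in cortex replicates 1 to 3 and at 105, 91.5 and 73.6 CPM in hippocampus. Every hippocampal library was above every cortical library. The difference was 2.29 ± 0.32 on the log2 scale (SE), 4.88-fold higher in hippocampus (edgeR quasi-likelihood test, adjusted p = 0.031). The threshold for a call was an adjusted p under 0.01 with a natural-log change of at least 0.1, and Necab1 did not reach it.

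Calb2 went the other way, at 118, 271 and 342 CPM in cortex and 60.3, 73.7 and 86.7 CPM in hippocampus, with no overlap. Its difference was -1.78 ± 0.38 on the log2 scale (SE; edgeR adjusted p = 0.12). S100a10 was at 68.2, 165 and 103 CPM in cortex and 30.4, 40.1 and 30.8 CPM in hippocampus, again with no overlap, and its difference was -1.78 ± 0.34 (SE; edgeR adjusted p = 0.094). Anxa2 was at 5.16, 5.72 and 7.76 CPM in cortex and 1.57, 0.990 and 0.272 CPM in hippocampus, where the libraries held 3, 2 and 1 UMIs (exact Poisson intervals of 0.324 to 4.60, 0.120 to 3.57 and 0.00690 to 1.52 CPM, covering counting error only). Its fitted difference was -2.96 ± 0.56 (SE; edgeR adjusted p = 0.089). Calb1 was at 623, 494 and 512 CPM in cortex and 411, 376 and 285 CPM in hippocampus, a difference of -0.66 ± 0.25 (SE; edgeR adjusted p = 0.50). Pvalb (-0.69 ± 0.55, edgeR adjusted p = 0.99) and Necab2 (0.80 ± 0.49, edgeR adjusted p = 0.91) overlapped between regions.

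None of the 7 members thus passed the edgeR threshold in the SST class, where 0.0334% of all 11989 genes did. At an unadjusted p under 0.05 there were 5 members and 902 genes. The median log2 difference was -0.69 over the members and 0.02 over all genes tested. With the replicate number as a block, since same-numbered libraries deviated together, 4 of 7 members passed, as did 2.76% of all genes. Necab1 then differed by 2.30 (edgeR adjusted p = 2.4e-05), S100a10 by -1.72 (9.5e-05), Calb2 by -1.68 (0.00016) and Anxa2 by -3.02 (0.0029). DESeq2 without a block called the same 4 members, with adjusted p of 1.5e-08 for Necab1, 0.00041 for S100a10, 0.0014 for Calb2 and 0.0079 for Anxa2, and called 1.17% of all genes. Without the shallow WT hippocampus replicate 2 the edgeR differences were 2.24 for Necab1 (adjusted p = 0.040), -1.95 for S100a10 (0.086), -1.81 for Calb2 (0.15) and -3.12 for Anxa2 (0.12). At resolutions 0.6 and 1.4, where clusters sharing the leading genes of the Gm27675 cluster were not named SST, they were 2.21 and 2.16 for Necab1, -1.45 and -1.47 for S100a10, -1.66 and -1.67 for Calb2 and -2.99 and -3.01 for Anxa2, and none passed. The null libraries, which took no part in this comparison, had the same order for Necab1 (12.2 and 28 CPM in cortex, 100 and 120 CPM in hippocampus), for Calb2 (189 and 226 against 49.7 and 80.8 CPM) and for S100a10 (134 and 332 against 37.3 and 92.5 CPM). They did not for Anxa2 (11.1 and 2.65 against 0.776 and 3.66 CPM).

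The SST clusters took different shares of the class in each region, and each interneuron cluster was therefore also compared alone where both regions had at least 2 WT libraries with 10 cells, a choice made after seeing the data. The Chodl cluster was the SST cluster highest in S100a10. It made up 5.30, 11.4 and 3.58% of the SST and TH cells in the cortical libraries and 0.341, 2.52 and 0.279% in the hippocampal ones. Without it S100a10 was at 31.4, 29.6 and 36.8 CPM in cortex and 28.4, 12.4 and 29.6 CPM in hippocampus. These ranges touched, with a single hippocampal library (12.4 CPM) well below the rest. The cluster left out was highest in S100a10 and larger in cortex, so a smaller gap had to follow. The part of its share in the regional difference was not tested. In the Crh cluster alone the S100a10 difference was 0.09 on the log2 scale. In the Myh13 cluster alone it was -1.22 (edgeR adjusted p = 0.92), with 37.3 to 90 CPM in cortex and 3.97 (1 UMI) and 25.7 CPM in hippocampal replicates 2 and 3.

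Calb2 differed by region within the Cbln4 cluster. It was at 577, 668 and 1181 CPM in cortex and at 19.4, 91.0 and 38.0 CPM in hippocampus, a difference of -4.10 ± 0.54 on the log2 scale (SE; edgeR adjusted p = 0.0048), or 17.1-fold lower in hippocampus. Of 4 members tested in this cluster it alone passed, with 0.524% of all genes. With the replicate block Calb1 passed as well (1.96% of all genes), at 1424, 894 and 750 CPM in cortex against 460, 290 and 254 CPM in hippocampus (log2 difference -1.64, edgeR adjusted p = 0.051 without and 0.00023 with the block). In the Gm27675 cluster Calb2 was at 48.4, 244 and 437 CPM in cortex and 58.0 and 25.8 CPM in hippocampal replicates 2 and 3 (log2 difference -2.32, edgeR adjusted p = 0.56 without and 1e-05 with the block, where 0.308% of genes passed). The values of 48.4 and 25.8 CPM are 2 UMIs each, under the floor of 3 UMIs, and the regions overlapped. With the block only replicates 2 and 3 compared the regions in this cluster, so the blocked p-value rests on few libraries. The Crh and Myh13 clusters did not share this pattern for Calb2, with log2 differences of 0.59 and 0.06.

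Necab1 was higher in hippocampus in several SST clusters. In the Crh cluster it was at 4.45, 10.1 and 7.63 CPM in cortex and at 47.3 and 38.5 CPM in hippocampal replicates 1 and 3, a log2 difference of 2.47 (edgeR adjusted p = 0.032 without the block, with 0.0204% of genes passing, and 2.8e-05 with it, with 1.3% passing). In the Myh13 cluster it was at 0, 6.65 and 4.63 CPM in cortex and 115 and 50.4 CPM in hippocampal replicates 2 and 3 (edgeR adjusted p = 0.016 with and without the block, with 0% and 0.0114% of genes passing). In the Cbln4 cluster the difference was 1.06 (edgeR adjusted p = 0.28). The Necab1 ranges of the 2 regions were apart in the Crh and Myh13 clusters as they were in the class. With the block only replicates 1 and 3 compared the regions in the Crh cluster, and only replicates 2 and 3 in the Myh13 cluster.

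Pvalb in the TH cluster was at 1022, 656 and 485 CPM in cortex and at 44.8 and 130 CPM in hippocampal replicates 1 and 3. The log2 difference was -2.98 (edgeR adjusted p = 0.051), and -2.90 with the block (edgeR adjusted p = 6.1e-13, 0.86% of all genes passing). Calb1 lay the opposite way in the same cells, from 7.41, 55 and 27.6 CPM in cortex to 112 and 85.1 CPM in hippocampus (log2 difference 1.76, edgeR adjusted p = 0.55; 2.27 with the block, edgeR adjusted p = 5.4e-06). The ranges of both genes were apart between regions in the WT libraries. With the block only replicates 1 and 3 compared the regions for both genes, so the blocked p-values rest on few libraries. In the null libraries Pvalb overlapped, at 1731 (10 cells) and 386 CPM in cortex and 102 and 642 CPM in hippocampus. Calb1 kept its order there, at 0 (10 cells, floor of 33.5 CPM) and 61.6 CPM in cortex and 101.5 and 119 CPM in hippocampus.

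**Figure D3:**
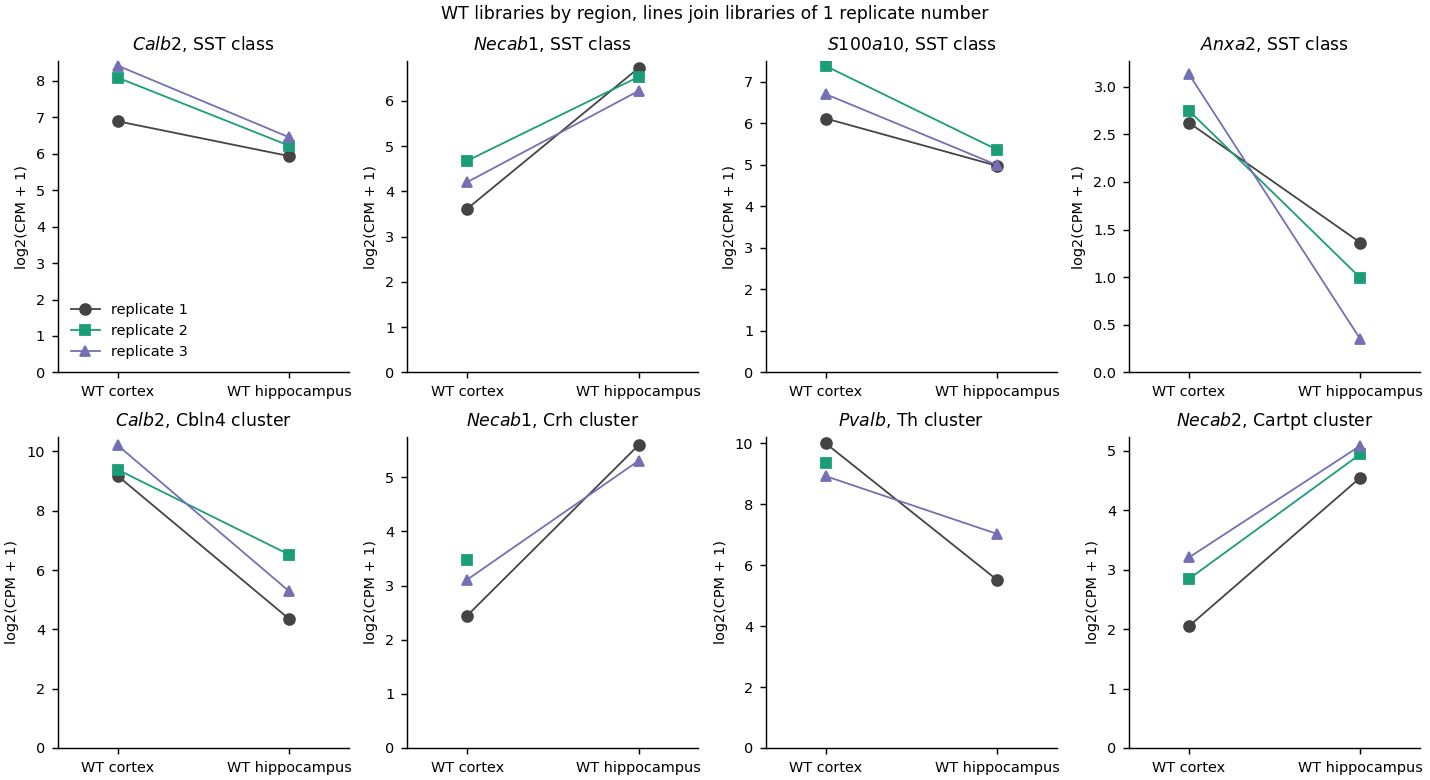
Level in the WT libraries of cortex and hippocampus on log2(CPM + 1) axes, with a symbol for each replicate and lines joining libraries of the same replicate number, for Calb2, Necab1, S100a10 and Anxa2 in the SST class and for 4 single clusters. Necab1 is higher in every hippocampal library than in every cortical one (73.6 to 105 against 11.3 to 24.6 CPM), and Calb2 in the Cbln4 cluster falls from 577 to 1181 CPM in WT cortex to 19.4 to 91.0 CPM in WT hippocampus.

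In the PVALB class Pvalb was at 2027, 1844 and 1704 CPM in cortex and at 333, 1456 and 650 CPM in hippocampus, so every cortical library was higher. The log2 difference was -1.17 ± 0.45 (SE; edgeR adjusted p = 0.96), and -1.93 (edgeR adjusted p = 0.081) without WT hippocampus replicate 2, whose 1456 CPM lay nearest to cortex. Calb1 was at 120, 253 and 119 CPM in cortex and 677, 213 and 175 CPM in hippocampus, with overlap. Necab1 (31.3, 35.6 and 33.6 against 32.1, 103 and 43.9 CPM) and Necab2 (22.3, 8.81 and 14.6 against 14.6, 19.2 and 39.4 CPM) overlapped as well. None of the 4 members tested passed by edgeR (0.0339% of all genes; 3 members and 366 genes at an unadjusted p under 0.05), by edgeR with the block (0.656%) or by DESeq2 (0.26%). Calb2, S100a10 and Anxa2 were too low in this class to be tested.

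Within the Cartpt cluster, the largest of the PVALB clusters, Necab2 was at 3.14, 6.19 and 8.24 CPM in cortex and 22.4, 29.8 and 33.0 CPM in hippocampus, with no overlap (log2 difference 2.13, edgeR adjusted p = 0.13, 0.0119% of genes passing; 2.17 with the block, edgeR adjusted p = 0.0065, 0.488% passing). Necab1 was at 10.5, 35 and 27.5 CPM in cortex and 49.4, 158 and 49.5 CPM in hippocampus (log2 difference 1.73, edgeR adjusted p = 0.56; with the block also 0.0065). Both genes were thus higher in every WT hippocampal than in every WT cortical library. In the null libraries Necab1 kept this order (48.4 and 59.8 against 105 and 150 CPM), whereas Necab2 was at 0 (19 cells, floor of 3 UMIs at 14.5 CPM) and 30.5 CPM in cortex and 33.9 and 28 CPM in hippocampus. Pvalb in the Cartpt cluster followed the class, at 2292, 2052 and 1834 CPM in cortex and 238, 1485 and 659 CPM in hippocampus. It did not pass the threshold there, with or without the block. Pvalb in the Kcng4 cluster did not follow the class, at 638, 829 and 264 CPM in cortex and 509, 1452 and 697 CPM in hippocampus (edgeR adjusted p = 1, 0.14% of genes passing, and 0.921% with the block).

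In NGFC, Necab2 was at 479, 239 and 225 CPM in cortex and 321, 173 and 330 CPM in hippocampus, with overlapping ranges and a log2 difference of -0.18 ± 0.39 (SE). Calb1 was at 19.7, 43.1 and 23.5 CPM in cortex and 153, 51.1 and 54.0 CPM in hippocampus, higher in every hippocampal library (log2 difference 1.59 ± 0.52, SE; edgeR adjusted p = 1). Necab1 was likewise higher in every hippocampal library (26.3, 38.3 and 7.82 against 64.7, 53.0 and 41.4 CPM; log2 difference 1.23, edgeR adjusted p = 1). None of the 4 members tested passed by edgeR (0% of all genes, 2 members and 210 genes at an unadjusted p under 0.05), by edgeR with the block (0.0639%) or by DESeq2 (0.0511%). In the Lamp5 cluster alone no member passed either, without the block (0% of genes) or with it (0.167%).

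The null libraries were compared with the WT libraries of the same region to ask whether loss of the NMDA receptor subunit changed the 7 genes. No member passed the edgeR threshold in any class or region, and neither did any other gene (0% of all genes in each of the 6 comparisons). Grin1 itself, at a log2 change of -2.74 in cortical SST cells, had an edgeR adjusted p of 0.032, so the deleted gene did not meet this threshold either. In SST cells 2 of 7 members had an unadjusted p under 0.05 in cortex (266 of all genes) and 1 in hippocampus (485 genes). The median log2 change over the members was 0.39 in cortex and 0.75 in hippocampus, against -0.02 and -0.03 over all genes. In PVALB cells 2 of 4 members had an unadjusted p under 0.05 in cortex (376 of 9751 genes) and 1 in hippocampus (308 genes), and in NGFC 1 of 5 did in each region (134 and 321 of 9701 genes). Null cortex is a single library in NGFC, assumed there to vary like the other groups. DESeq2 called Necab2 in cortical PVALB cells (0.164% of all genes) and no other member in any of the 6 comparisons, with 0.0156% of genes passing in SST cells of each region, 0.0103% in hippocampal PVALB cells and in hippocampal NGFC, and 0% in cortical NGFC. With the replicate block no member passed, with 0.0513% of genes passing in cortical PVALB cells and 0% in the other 5 comparisons.

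Necab2 in cortical PVALB cells was at 22.3, 8.81 and 14.6 CPM in WT and at 39.0 and 103 CPM in null libraries, which did not overlap. The log2 change was 2.42 ± 0.44 (SE; edgeR adjusted p = 0.049; DESeq2 2.34, adjusted p = 0.0046), or 5.37-fold. Without null cortex replicate 1 it was 2.79 (edgeR adjusted p = 0.062), and without null cortex replicate 2 it was 1.45 (edgeR adjusted p = 1). Necab1 in the same cells was at 31.3, 35.6 and 33.6 CPM in WT and 95.6 and 123 CPM in null libraries (log2 change 1.74 ± 0.38, SE; edgeR adjusted p = 0.13; DESeq2 adjusted p = 0.019). It passed the edgeR threshold when WT hippocampus replicate 2, which belongs to neither group but shares the fit, was left out (edgeR adjusted p = 0.0086), when 11 of 9876 genes passed.

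The Crabp1 cluster was rich in both Necab genes. It made up 7.04, 1.97 and 2.82% of the cortical PVALB cells in WT and 25% (7 of 28 cells) and 23.5% in the null libraries. Without it Necab2 was at 2.84, 6.35 and 9.06 CPM in WT and 0 and 35.9 CPM in null libraries, and Necab1 at 9.47, 29.5 and 25.9 CPM in WT and 47.6 and 39.2 CPM in null libraries. Within the Crabp1 cluster Necab2 was at 345, 146 and 191 CPM in WT and 306 CPM in null cortex replicate 2, and Necab1 at 392, 375 and 278 CPM in WT and 376 CPM in that null library. The 0 comes from 21 cells, in which 3 UMIs would be 14.3 CPM, above every WT value, so it cannot place that library within or above the WT range. The other null library was above the WT range without the cluster, and within the WT range in the cluster. For Necab1 without the cluster the null libraries were still above every WT library. The cluster left out was rich in both genes and larger in null cortex, so lower null values had to follow. The part of its share in the Necab1 and Necab2 changes was not tested. In hippocampal PVALB cells Necab2 was at 32.9 and 34.5 CPM in null libraries against 14.6 to 39.4 CPM in WT (log2 change 0.35 ± 0.49, SE). The interaction, which compares the change in hippocampus with that in cortex, was -2.07 for Necab2 (unadjusted p = 0.0077, edgeR adjusted p = 1).

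S100a10 in SST cells was at 134 and 332 CPM in null cortex against 68.2, 165 and 103 CPM in WT, and at 37.3 and 92.5 CPM in null hippocampus against 30.4, 40.1 and 30.8 CPM. The log2 changes were 1.08 ± 0.44 and 0.99 ± 0.46 (SE; edgeR adjusted p = 1 and 0.96), and the genotypes overlapped in both regions. The Chodl cluster made up 2.73 and 19.9% of SST and TH cells in null cortex, against 3.58 to 11.4% in WT cortex. In hippocampus it made up 1.89 and 2.36% in null and 0.279 to 2.52% in WT libraries. The part of these shares in the S100a10 values was not tested. Without the Chodl cluster the null libraries held 112 and 83.2 CPM in cortex against 29.6 to 36.8 CPM in WT, with no overlap, and 29.8 and 73.7 CPM in hippocampus against 12.4 to 29.6 CPM. Within the Chodl cluster null cortex replicate 2 held 894 CPM, between the WT values of 524, 685 and 945 CPM.

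Necab2 in SST cells was at 44.4 and 70.4 CPM in null cortex against 22.7, 16.1 and 14.9 CPM in WT, with no overlap (log2 change 1.72 ± 0.48, SE; edgeR adjusted p = 1). In hippocampus it was at 55.1 and 57.8 CPM against 54.5, 9.90 and 33.8 CPM, where both null libraries were above the WT range by a small margin. Calb1 in hippocampal SST cells was at 532 and 650 CPM in null against 411, 376 and 285 CPM in WT (log2 change 0.75 ± 0.30, SE; edgeR adjusted p = 0.96). It was also higher in both null libraries of hippocampal PVALB cells, at 717 and 868 CPM against 677, 213 and 175 CPM (log2 change 1.19 ± 0.47, SE; edgeR adjusted p = 1). The buffer Pvalb overlapped between genotypes in PVALB cells of both regions, at 3141 and 1318 CPM in null cortex against 1704 to 2027 CPM, and at 369 and 1861 CPM in null hippocampus against 333 to 1456 CPM. The Cartpt cluster made up 82.4 to 92.3% of cortical PVALB cells in WT and 67.9 and 45.7% in null libraries. Within it Pvalb was at 3385 and 1551 CPM in null cortex against 1834 to 2292 CPM in WT. In NGFC, Necab2 was at 358 and 531 CPM in null hippocampus against 173 to 330 CPM in WT, and Calb1 at 283 and 105 CPM against 51.1 to 153 CPM (edgeR adjusted p = 0.96 for each). Pooled over libraries, there were 488 Lamp5 and 551 Pde11a cells in WT hippocampus and 702 and 32 in null hippocampus. Of the 551 WT Pde11a cells, 515 came from the shallow WT hippocampus replicate 2. In WT replicates 1 and 3, 170 of 175 and 315 of 346 NGFC cells were in the Lamp5 cluster. In the Lamp5 cluster Necab2 was at 358 and 537 CPM in null hippocampus, against 312 and 335 CPM in WT replicates 1 and 3. The only null cortex NGFC library held 77.2 CPM of Calb2 against 1.57 to 36.1 CPM in WT. The median UMIs per PVALB cell were 7198 to 16016 in the 4 null libraries, lowest in null cortex replicate 1, and 2585 to 11676 in the 6 WT libraries, and the part of depth in these values was not tested.

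**Figure D4:**
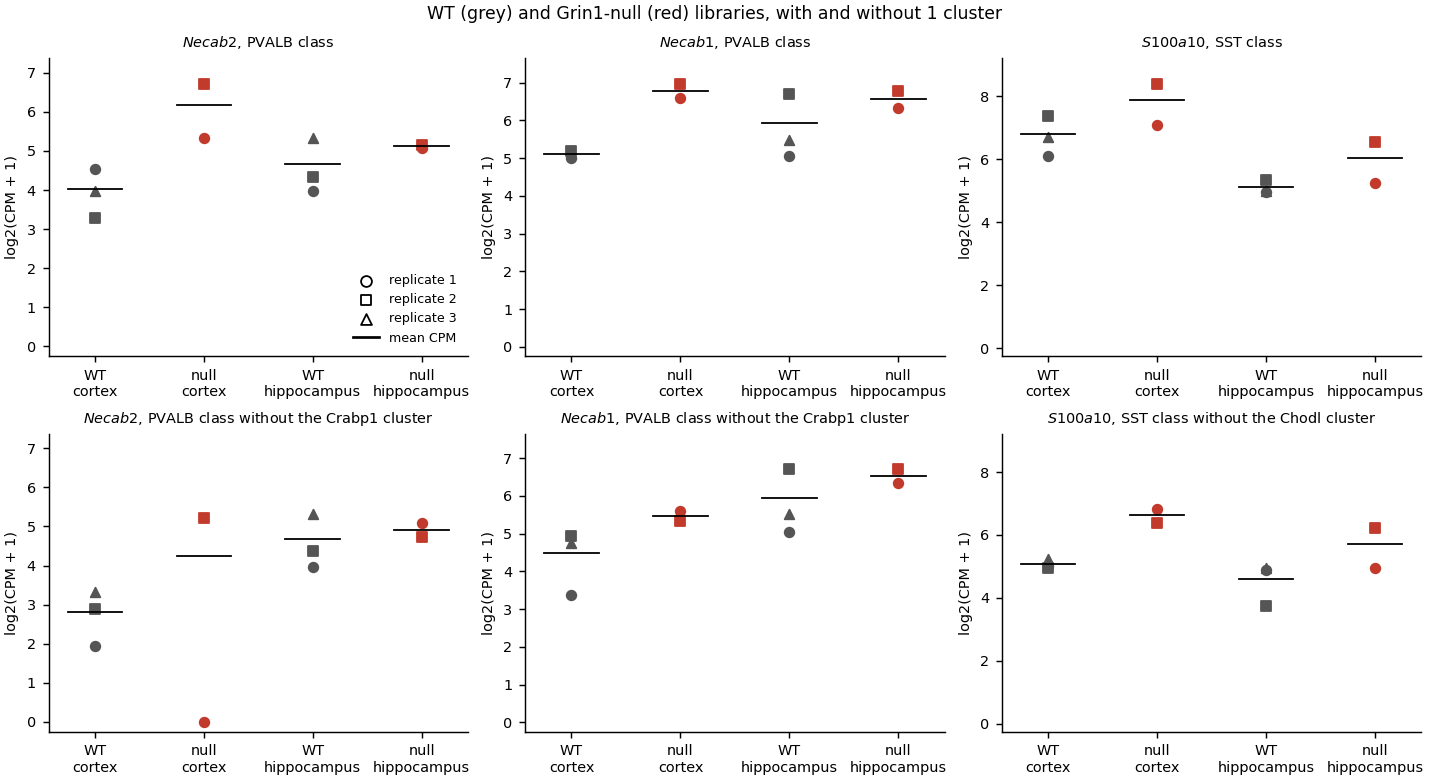
CPM per library in WT and null cells of cortex and hippocampus for Necab2 and Necab1 in the PVALB class and S100a10 in the SST class, shown for all cells of the class and without the Crabp1 or Chodl cluster. Null cortex lies above WT cortex for Necab2 in all PVALB cells (39.0 and 103 against 8.81 to 22.3 CPM) and without the Crabp1 cluster null replicate 2 is at 35.9 CPM against 2.84 to 9.06 CPM in WT, while replicate 1, at 0 UMIs in 21 cells, is below its floor of 14.3 CPM.

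Cells of a class were next divided by whether they held a UMI of a member, after thinning each cell to 2000 UMIs and leaving out shallower cells. Calb1 was found in 7.93% of cortical WT PVALB cells with Pvalb (95% Wilson interval 6.22 to 10.1) and in 30.4% of those without (26.3 to 34.8), and in 11.8% (6.86 to 19.5) and 35.5% (28 to 43.8) in hippocampus. The unthinned shares were 18.9 and 43.1% in cortex and 19.9 and 46.9% in hippocampus. Calb1 was less frequent in Pvalb-positive cells in each of the 6 WT libraries and in both null libraries with enough cells. Calb1 was instead more frequent with Necab1, in 40.3% (29.0 to 52.8) of Necab1-positive against 14.9% (12.9 to 17) of Necab1-negative cortical WT PVALB cells. In WT hippocampus the shares were 44.4% (24.6 to 66.3) and 23.9% (18.7 to 29.9), with intervals that overlapped. In the null cortex replicate 2, where Crabp1 cells were frequent, the shares were 12.8 and 13.2%, and in null hippocampus replicate 2 they were 61.7 and 28.4%. The part of the Crabp1 cells in these shares was not tested. These intervals cover counting error only, since cells of a library are not replicates.

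In SST cells, S100a10 was found in 6.19% of Calb1-positive and 18.6% of Calb1-negative cortical WT cells (15.6 and 28.5% unthinned), and in 3.41 and 6.57% in hippocampus (9.85 and 8.33% unthinned, the reverse order). After thinning, the share was lower in Calb1-positive cells in each of the 6 WT libraries. Without the Chodl cluster, left out after seeing the data, it was 6.20% (95% Wilson interval 5.07 to 7.56) in Calb1-positive and 6.36% (5.04 to 7.98) in Calb1-negative cortical cells and 3.41 and 4.74% in hippocampus, and it was lower in Calb1-positive cells in 4 of the 6 WT libraries. The Chodl cluster was high in S100a10 and low in Calb1 in WT cortex, so a smaller cortical gap had to follow. The part of this cluster in the gap was not tested. With all SST cells the null libraries were mixed, with 22 against 7.69% in cortex replicate 1, 19.5 against 41.8% in cortex replicate 2, 13.2 against 0% in hippocampus replicate 1 and 13 against 11.5% in hippocampus replicate 2. Without the Chodl cluster the share was higher in Calb1-positive cells in each of the 4 null libraries. Calb2 was found in 19.1% (95% Wilson interval 17.2 to 21.2) of Calb1-positive and 15.7% (13.8 to 17.8) of Calb1-negative cortical WT cells. In hippocampus the shares were 11.5% (8.43 to 15.4) and 6.39% (4.65 to 8.7). The intervals overlapped in both regions, and the share was higher in Calb1-positive cells in each WT library. Without thinning, an Anxa2 UMI was found in 3.73% (95% Wilson interval 2.50 to 5.54) of S100a10-positive and 3.64% (2.97 to 4.45) of S100a10-negative cortical cells, shares that overlap within counting error. After thinning it was in 0 of 331 S100a10-positive and in 1.28% of S100a10-negative cells, where the counts of this low gene limit detection.

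**Figure D5:**
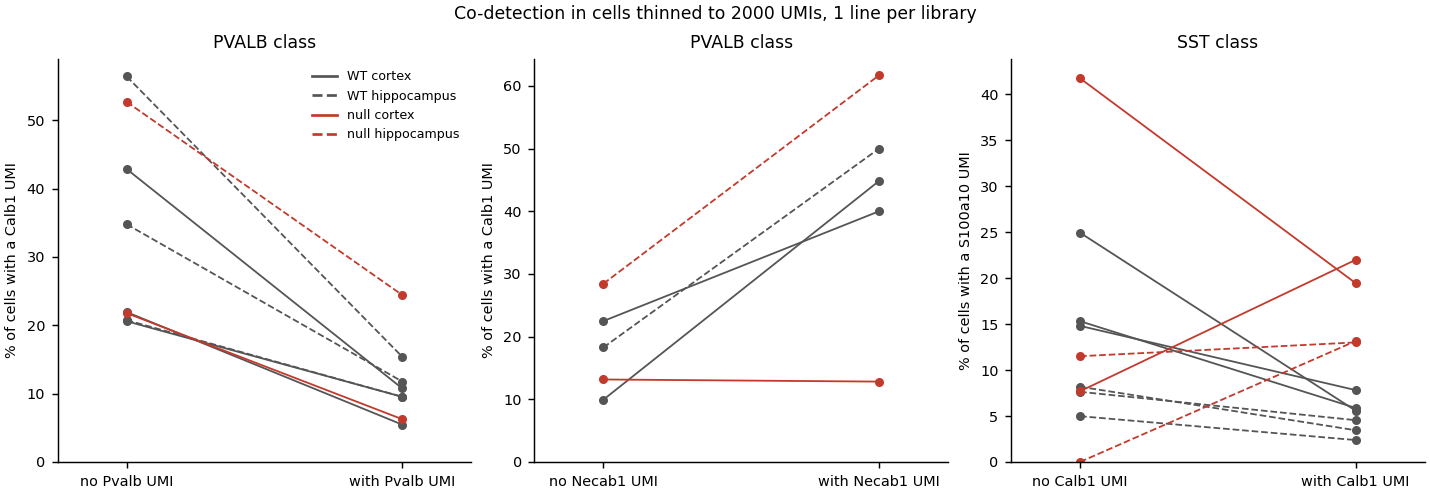
Percent of cells with a UMI of a second gene among cells with and without a UMI of a first, per library after thinning to 2000 UMIs per cell, for Calb1 by Pvalb and by Necab1 in PVALB cells and S100a10 by Calb1 in SST cells. Calb1 is less frequent in Pvalb-positive cells in all libraries drawn, from 5.45 against 21.9% in WT cortex replicate 3 to 24.4 against 52.7% in null hippocampus replicate 2.

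Genes with the pattern most like each member were ranked by the Pearson correlation of log2(CPM + 1) over 54 class and library sums of the WT libraries, which share library depth and chemistry, and are given as a description. Pvalb was nearest to Hapln4 (r = 0.813), Syt2 (0.803) and Hsbp1l1 (0.772), Calb1 to Mapk10 (0.849), Cers6 (0.840) and Ly6h (0.829), and Calb2 to Grin3a (0.750), Elfn1 (0.729) and Rgs9 (0.713). Necab1 was nearest to Acta1 (0.922) and Krt222 (0.921), and Necab2 to Adamts17 (0.834), Mgat5b (0.833) and Wdr6 (0.820). S100a10 was nearest to Adra2a (0.716), Slc20a1 (0.713) and Igfbp5 (0.700), and Anxa2 to Anxa1 (0.823), Capg (0.746) and Plscr2 (0.738). Syt2 and Elfn1 are among the markers that named the PVALB and SST clusters. Between members the closest pair was Calb1 and Necab1 (0.717), and S100a10 and Anxa2 were at 0.267.

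The other calcium-binding genes were taken from 8 fixed lists of 72 genes. Among calmodulin genes, Calm2 was at 2674 CPM (mean over the interneuron classes, as for the genes that follow). Among neuronal calcium sensors Ncald (625 CPM) and Vsnl1 (594) led. In the CaBP family it was Cabp1 (101) and Caln1 (78.9), among other cytosolic EF-hand proteins Ppp3r1 (286) and Efhd2 (158), in the S100 family S100a16 (14) and S100a6 (13.9), and among annexins Anxa7 (27.3) and Anxa6 (16.7). Endoplasmic reticulum calcium-binding proteins were led by Hsp90b1 (421) and Canx (362), and reported partners of S100a10 and annexin A2 by Grm5 (314) and Kcnk3 (96.2). None of the listed genes passed the edgeR threshold in any comparison. Between regions in SST cells, 0 of 44 tested passed and 11 had an unadjusted p under 0.05, with a median log2 difference of -0.15 against 0.02 over all genes. Of all genes 0.0334% passed and 902 of 11989 had such a p. In PVALB cells it was 0 of 36 and 5, beside 0.0339% and 366 of 8847 genes, and in NGFC 0 of 35 and 2, beside 0% and 210 of 7826 genes.

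With the replicate block 7 of the 44 passed between regions in SST cells, 4 higher and 3 lower in hippocampus, beside 2.76% of all genes. DESeq2 called 2 of the 44 (Caln1 and Necab3), beside 1.17% of all genes. Caln1, a calmodulin-like protein of the CaBP family, was higher by 1.93 on the log2 scale (edgeR adjusted p = 0.0031) and Grm5, the metabotropic glutamate receptor listed as a p11 partner, by 1 (0.0064). S100b was higher by 2.11 (0.0046) and S100a16 by 1.54 (0.0012). Both S100 genes were far higher in oligodendrocyte precursors (1156 and 1847 CPM) and oligodendrocytes (473 and 539 CPM) than in SST cells (10.9 and 14.6 CPM), and the part of RNA from those cells was not tested. Necab3, the third Necab family member, was lower in hippocampus by a log2 difference of -1.59 (edgeR adjusted p = 0.00071), with Cabp1 at -1.08 (0.0061) and Hpca, the neuronal calcium sensor hippocalcin, at -0.92 (0.0089). In PVALB cells with the block 2 of 36 passed (0.656% of all genes), Caln1 at 1.30 (0.0092) and Rcn1, an endoplasmic reticulum EF-hand protein, at -3.46 (0.00054; -3.44 and 0.044 without the block). DESeq2 called Rcn1 alone of the 36 (0.26% of all genes), with an adjusted p of 0.041 for Caln1.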

How the data were processed

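Droplet 3′ single-cell RNA-seq of sorted TdTomato-positive cells was analysed from 4 matrices of UMI counts, with a matrix for each region and genotype. The authors obtained the counts before deposit with Cell Ranger 2.1.1, per the methods and the submitters' processing notes, on mm10 with gene ends extended by 4 kb, which can add reads from downstream of a gene, while the matrix headers name version 3.0.2. The deposited counts are raw UMI counts per gene and cell. The barcode suffix told libraries apart, and their cell numbers, set against those in the methods, gave the replicate. Between 0 and 12 barcodes were shared by any pair of libraries. The 7 members and the lists were chosen with earlier results of these data known.

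Cells with 200 to 6000 genes and at most 30% mitochondrial UMIs were kept. Seurat 5.3.0 in R 4.3.3 integrated the matrices over 25 dimensions with 2000 variable features and clustered at resolution 1, giving 35 clusters, of which 31 were named from at least 3 markers reaching 20 CPM. Doublets were left in. As an alternative, Scrublet marked 249 cells (0.950%). UMIs were summed per library and class (10 cells or more) and tested with edgeR 4.0.16 (TMM, filterByExpr, quasi-likelihood test, Benjamini-Hochberg over all genes). The 4 groups shared a fit for genotype, and the 6 WT libraries were fitted for region. The call threshold (natural-log change at or above 0.1, adjusted p below 0.01) follows the methods, where cells and not libraries were tested. The rest used scanpy 1.11.5, pandas 2.3.3, scipy 1.17.1, numpy 2.4.6 and matplotlib 3.10.9 under Python 3.11.15. The test was checked on simulated data, and the outcome is not given here. Intervals and floors cover counting error only. Libraries come from pools of animals, so p-values measure the spread between pools. Per the methods, slices of the same mice were dissected for both regions, so cortical and hippocampal libraries of a replicate can share animals. The regional fit without the block treats them as independent.

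The replicate number pairs the WT libraries. Deviations from the group means of same-numbered cortical and hippocampal libraries correlated at 0.789, 0.718 and 0.440 for replicates 1 to 3 in SST cells (6649 genes), at 0.640, 0.635 and 0.399 over 6650 genes in the PVALB class, and at 0.615, 0.514 and 0.239 over 6617 genes in NGFC. The methods give replicate 1 another chemistry. Blocked values are printed where they change a call.

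Genes named were the 7 members in every comparison, listed genes past the threshold or else the 2 most abundant of each list, and the 3 genes most correlated with each member among those reaching 20 CPM in a class. Of these, 2 genes are not reported here. Clusters compared alone, and classes without the Chodl or Crabp1 cluster, were chosen after seeing the data. Alternatives tried were DESeq2 1.42.0, library-size scaling, no filter on low counts, the replicate block, an adjusted p under 0.05, resolutions 0.6 and 1.4, doublets removed, keeping cells with no more than 10% mitochondrial UMIs and 1000 or more genes, classes of single cells, SST cells without the TH cluster, only the libraries of the groups compared, thinning to 1000 or 2000 UMIs, and leaving out each library.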

Additional observations from a re-analysis of the deposited data

How the results depend on the processing

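Of the member log2 changes under all alternatives, 922 kept their direction and side of the threshold, 27 kept their direction and passed it, and 35 changed sign. Of mean CPM levels 473 moved by less than the spread between replicates and 24 by more, and all 70 thinned shares of cells fell outside the interval of the unthinned share. No member passed between regions in the SST class in the edgeR fit, against 1 at an adjusted p under 0.05 (37 of 11989 genes) and 4 without the filter on low counts (150 of 21798), with DESeq2 or with the replicate block. In single clusters it was 1 for the Cbln4 cluster alone, and with the block 2 there, 1 in the Crh cluster, 1 in the Gm27675 cluster and 2 in the TH cluster. In PVALB cells between regions it was 2 in the Cartpt cluster with the block. For null against WT cortex, 1 passed in SST cells without the filter (Necab2, with 21 of 23184 genes), and in PVALB cells 1 at an adjusted p under 0.05 (Necab2, 14 of 9751), 2 without the filter (Necab1 and Necab2, 60 of 20557) and 1 with DESeq2 (Necab2). Leaving out a library gave 0 to 1 there. The 1 was Necab1, without WT hippocampus replicate 2. The replicate block changed no other call of a member. The cause of these changes was not tested.

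Signs turned as follows. For null against WT cortex in SST cells, leaving out a library gave Pvalb from -0.39 to 1.14, Calb1 from -0.076 to 0.76, Calb2 from -0.52 to 0.13, Necab1 from -0.51 to 0.67 and Anxa2 from -1.23 to 0.85, and the block gave Calb2 0.10. In hippocampus leaving out a library gave Pvalb from -0.13 to 1.51, Calb2 from -0.49 to 0.12 and Anxa2 from -0.010 to 2.36, and Calb2 was 0.014 with classes of single cells and 0.048 with the block. Between regions in SST cells, Pvalb was 0.33 without the TH cluster, 0.21 and 0.26 in the Crh cluster (without and with the block) and 0.46 and 0.17 in the Gm27675 cluster. Calb1 was 1.76 and 2.27 in the TH cluster, Calb2 0.59 and 0.66 in the Crh cluster and 0.063 and 1.33 in the Myh13 cluster, and S100a10 0.089 and 0.025 in the Crh cluster. In PVALB cells leaving out a library gave Pvalb from -0.52 to 0.79 for null cortex (lowest without null cortex replicate 1) and from -1.09 to 1.18 for null hippocampus (lowest without null hippocampus replicate 2), and Pvalb was 0.68 and 0.71 between regions in the Kcng4 cluster. In NGFC, classes of single cells gave Pvalb -0.58 and Calb2 -0.75 for null hippocampus, where leaving out a library gave Calb2 from -0.60 to 1.74. Necab2 between regions in NGFC was 0.051 in the Lamp5 cluster, and from -0.37 to 0.29 leaving out a library.

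Precision is limited by 2 null libraries per region, by pools of animals, by the shallow WT hippocampus replicate 2 and by the few cells of null cortex replicate 1. Anxa2 in SST cells rests on 1 to 3 UMIs in each WT hippocampal library. Chemistry and replicate 1 cannot be told apart.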

Other observations

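Members were also measured in groups of cells that the comparisons above leave out. The unnamed cluster led by Oxt (419 cells) was at 71.3 to 520 CPM of Calb1, 10.9 to 392 CPM of Calb2, 58.5 to 402 CPM of S100a10 and 24.8 to 82.6 CPM of Necab2 over 5 WT libraries. In null hippocampus replicate 2 it was at 1141 CPM of Calb1 and 716 CPM of Calb2. A UMI of S100a10 was found in 38.0% of its cells and of Calb2 in 25.3%. The small unnamed cluster led by Igfbpl1 (156 cells, median 1361 UMIs) was at 200 to 1250 CPM of Calb2 over 4 WT libraries, with a UMI in 34.0% of its cells, and at 0 to 438 CPM of S100a10. The 200 CPM is 2 UMIs in 12 cells, under the floor of 301 CPM. The same 12 cells gave the 0 for S100a10. The cluster held no Necab2 or Anxa2 UMI.

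Among the clusters of oligodendrocyte precursors, that led by Epcam (1296 cells) held 44.4 CPM of Pvalb, in 15% of its cells, and 45.1 CPM of Necab2, in 16.5%. After thinning to 2000 UMIs the shares were 7.83 and 8.64%. Calb1 and Necab1, in contrast, were at 4.03 and 0.701 CPM in the same cells.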
